A study of Homo sapiens with 10 samples.

Results

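The genes described here are 31 well-known transcriptional targets of the tumour suppressor p53, taken by symbol from a table of gene read counts. Each of the 31 symbols was on exactly 1 of the 60898 rows, and all 31 passed the filter on low counts that kept 21063 genes. Their RNA was measured by sequencing of total RNA in 10 libraries, in 5 groups of 2. All are labelled neural progenitor cells (NPCs), derived from the human embryonic stem cell line H1. WT is the unedited line, and KO1 and KO2 are lines numbered 1 and 2 whose genotype is a STAMBP knockout. KO+STAMBP is the knockout with STAMBP added and KO+CFLAR the knockout with CFLAR added; no agent or treatment time is given for any group. STAMBP is a deubiquitinase that acts on endosomal sorting, and CFLAR encodes an inhibitor of caspase-8 activation. The labels do not say whether a knockout line is 1 clone, which line received a construct, which promoter drives it, or whether libraries that share a group stem from different cultures. The p-values therefore rest on a spread between libraries that may be only technical.

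The p53 protein is held at a low level by MDM2, a ubiquitin ligase that is itself a p53 target, and accumulates when DNA damage, ribosomal stress or other stress signals block that degradation. It then binds paired half-sites in DNA and raises genes of cell cycle arrest, DNA repair, metabolic protection and cell death, together with its own inhibitors. In neural progenitors p53 is known for limiting self-renewal and for removing damaged cells. Most of its targets also answer to other transcription factors, and p53 activity is set mainly on the protein, which RNA counts do not show.

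Sequence around the start sites was examined because the 31 genes share a regulator. Of the 31 genes, 27 were found in RefSeq promoter windows of GRCh38.p14 that run from 250 bases before to 50 after each start, 41 windows in all; GADD45A, PHLDA3, RRM2B and TP53INP1 were not among them. The published p53 half-site consensus, which reads the same on both strands and so covers both, was found without a mismatch in windows of 6 of the 27 genes (22.2%), against 8.06% of all 27305 genes in the table. A pair of half-sites with 18 or more of 20 letters matching, the C and G that bound each half-site's core kept and a spacer of 0 to 13 bases was found for 4 of 27 (14.8%), against 3.62% of all genes. Of all the genes, 10 had a pair without a mismatch, and DDB2 was one of them. These 30-base stretches are shown, 5′ to 3′ on the strand of the gene, because they are the matches found among the 27 genes; capitals mark the half-sites.
DDB2: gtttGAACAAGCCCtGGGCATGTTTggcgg
MDM2: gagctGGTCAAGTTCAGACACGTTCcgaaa
AEN: gagccGGGCTTGCCCGGGCATGTGGgagct
FDXR: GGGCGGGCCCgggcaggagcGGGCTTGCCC
PLK2: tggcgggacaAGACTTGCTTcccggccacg
SESN1: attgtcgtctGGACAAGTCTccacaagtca
RPS27L: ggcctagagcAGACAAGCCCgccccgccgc
The first 4 hold a pair and the other 3 a single half-site.

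The DDB2 stretch (GRCh38.p14, chr11:47214975-47215004, plus strand) has a 1-base spacer and lies in a UTR exon just after the later of the gene's RefSeq starts. The MDM2 stretch (chr12:68808918-68808947, plus strand) holds 2 adjoining half-sites from 94 to 75 bases before the gene's internal start, in an intron of the longer transcripts. In AEN (chr15:88621301-88621330, plus strand) the pair also adjoins, 34 to 15 bases before the start, and in FDXR (chr17:74872996-74873025, minus strand) it has a spacer of 10 bases; both lie in UTR exons of GENCODE release 29 transcripts. PLK2 (chr5:58460199-58460228, minus strand) and RPS27L (chr15:63157517-63157546, minus strand) have their half-site in a UTR exon, and SESN1 (chr6:109009018-109009047, minus strand) in an intron. No exact half-site or pair was found in the windows of CDKN1A, whose known p53 sites lie further upstream, or in those of TP53I11 and CYFIP2. A match is a description of letters in these windows and not a measured binding site.

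Libraries held 16495116 to 20832700 counts. Levels are CPM, the counts of a gene relative to the library total, after scaling by trimmed-mean (TMM) factors. STAMBP was at 43.4 and 47.2 CPM in WT, 19.5 and 16.9 CPM in KO1 and 19.2 and 18.9 CPM in KO2, and 40.4 and 45.3 CPM in KO+STAMBP and 42.9 and 40.0 CPM in the libraries labelled KO+CFLAR. CFLAR was at 34.2 and 30.4 CPM in WT, 257 and 248 CPM in KO1 and 247 and 264 CPM in KO2, and 32.1 and 32.1 CPM in KO+STAMBP and 31.3 and 29.4 CPM in the libraries labelled KO+CFLAR. The libraries labelled KO+CFLAR thus had STAMBP near its WT level and CFLAR no higher than in WT, against what their label gives, and each direction stated for them rests on that label. Of 15 epithelial markers, 14 were higher and 0 lower in the knockout, with summed levels of 33.4 to 35.6 CPM in WT (KRT14 and OVOL1 at 0 counts), 8507 to 8983 in the knockout, 64.5 to 65.9 in KO+STAMBP and 56.2 to 58.3 in KO+CFLAR. Of 12 neural progenitor markers, 10 were lower and 1 higher, with sums of 8787 to 8903 CPM in WT, 3438 to 3456 in the knockout, 5044 to 5055 in KO+STAMBP and 5193 to 5242 in KO+CFLAR. All 10 neuron markers were lower, with sums of 3938 to 3998 CPM in WT and 817 to 839 in the knockout, and 6094 to 6133 and 6131 to 6268 in the rescues. The knockout's neural progenitor sum was mostly VIM (2259 CPM) and NES (661 CPM). SOX1 (from 147 CPM in WT to 0.480), FABP7 (1124 to 0.446), PTPRZ1 (1882 to 3.71) and NCAN (732 to 0.504) were near 0 there, against the NPC label. They were singled out after their values were seen. PAX6, the 1 marker called higher, was at 181 CPM in WT and 208 in the knockout. SOX2 (297 to 28.4), CDH2 (659 to 203), MSI1 (170 to 37.8), SLC1A3 (705 to 40.0) and HES5 (14.2 to 2.34) were lower there. Of 9 mesenchyme and neural crest markers 7 were tested, of which 4 were higher and 2 lower. Their sums over all 9 were 38.6 to 41.3 CPM in WT, 1056 to 1114 in the knockout and 50.2 to 55.8 and 45.9 to 45.9 in the rescues. COL1A1 made most of the knockout sum, at a mean of 1030 CPM. Of 6 pluripotency markers 4 were tested, of which 3 were higher and 0 lower. Their sums over all 6 were 2.39 to 3.18, 23.9 to 27.3, 2.67 to 2.79 and 1.41 to 2.89 CPM in the same order. LIN28A made most of the knockout sum, at a mean of 21.9 CPM, while POU5F1 was at 0.979 CPM in WT and 0.719 in the knockout. Over all genes tested, 36.8% were higher and 39.4% lower in the knockout. The part of these markers in the results below was not tested, and fewer cells of a type cannot be told apart from less RNA per cell. Mitochondrially encoded genes took 3.14% to 3.44% of the counts in the 4 knockout libraries and 3.96% to 4.70% in the other 6, without overlap; the part of this share in the results was not tested.

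Loss of STAMBP was examined first. In the knockout, 29 of the 31 p53 targets were higher than in WT and 2 were lower, by edgeR's quasi-likelihood test at a Benjamini-Hochberg adjusted p under 0.05 over all genes. Of all tested genes, 36.8% were called higher and 39.4% lower, so most genes of the table were called and the members are described by direction and size. The median log2 change of the 31 genes was 1.34, against -0.04 over all genes tested. At least 2-fold rises were seen in 19 of the 31, against 21% of all genes. Of the rises, 3 were at least 16-fold (GDF15, CDKN1A and PLK2), 11 at least 4-fold, and 10 were under 2-fold. The lower genes were TP53I11 and CYFIP2.

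**Figure D1:**
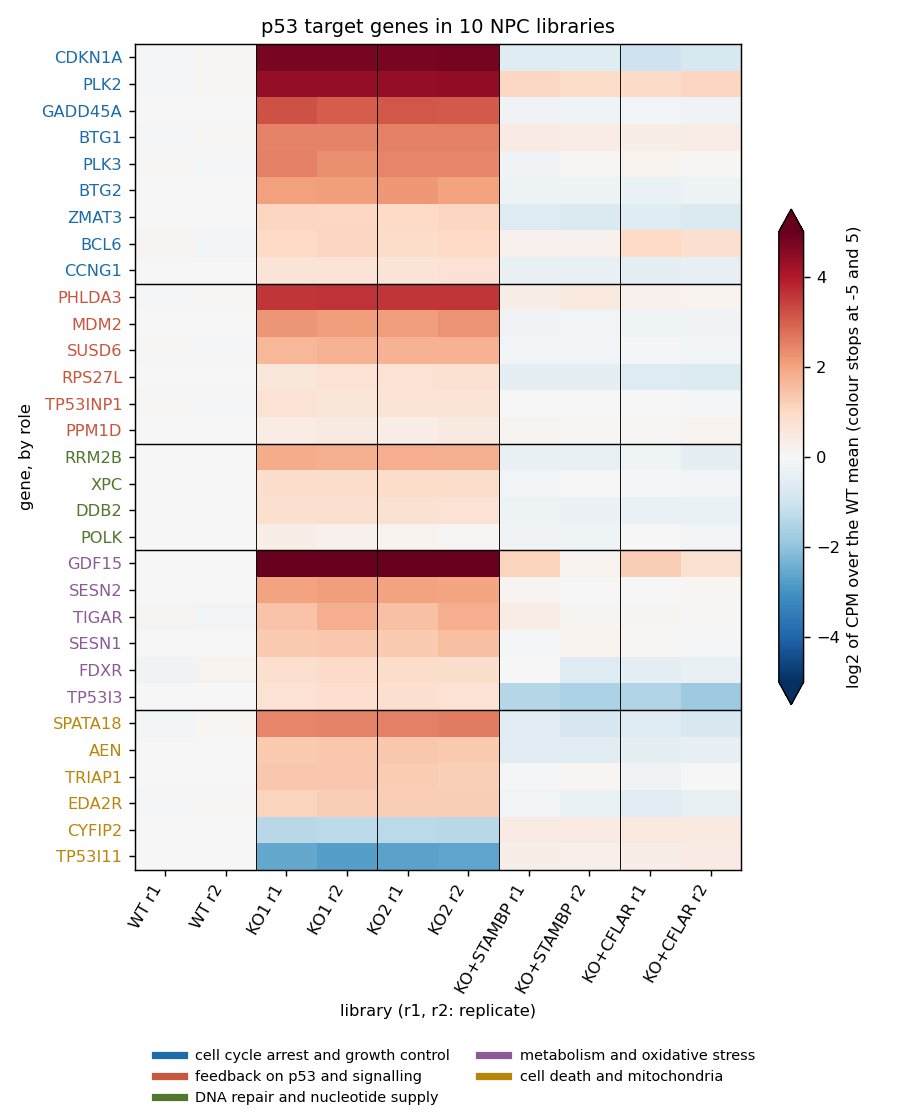
Each cell gives the log2 ratio of a gene's CPM in 1 library (columns) to its mean in WT, for the 31 genes (rows) grouped by role and sorted by knockout change within a role. The 4 knockout libraries are red for 29 genes and blue for TP53I11 and CYFIP2, and the 4 rescue libraries lie near WT for most genes.

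Summed over the 31 genes, the level was 1574 and 1565 CPM in WT, 5584 and 5525 in KO1, and 5558 and 5664 in KO2. It was 1580.2 and 1570.4 CPM in KO+STAMBP and 1603 and 1616 in the libraries labelled KO+CFLAR. The sum was thus more than 3 times higher in each of the 4 knockout libraries than in any of the other 6. In the knockout, though not in WT, CDKN1A, MDM2 and PLK2 together made most of the sum, at 53.1% against 14.6%. CDKN1A alone gave 3.84 ± 0.196% of the sum in WT (SD, n = 2) and 29.3 ± 0.0871% in the knockout (n = 4). The close sums of WT and the rescues rest on opposite movements. Without TP53I11 and CYFIP2, which are abundant outside the knockout, the sum was 1127 ± 4.45 CPM for WT, 1017 ± 6.38 CPM for KO+STAMBP and 1015 ± 3.16 CPM for the libraries labelled KO+CFLAR (SD, n = 2 each).

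**Figure D2:**
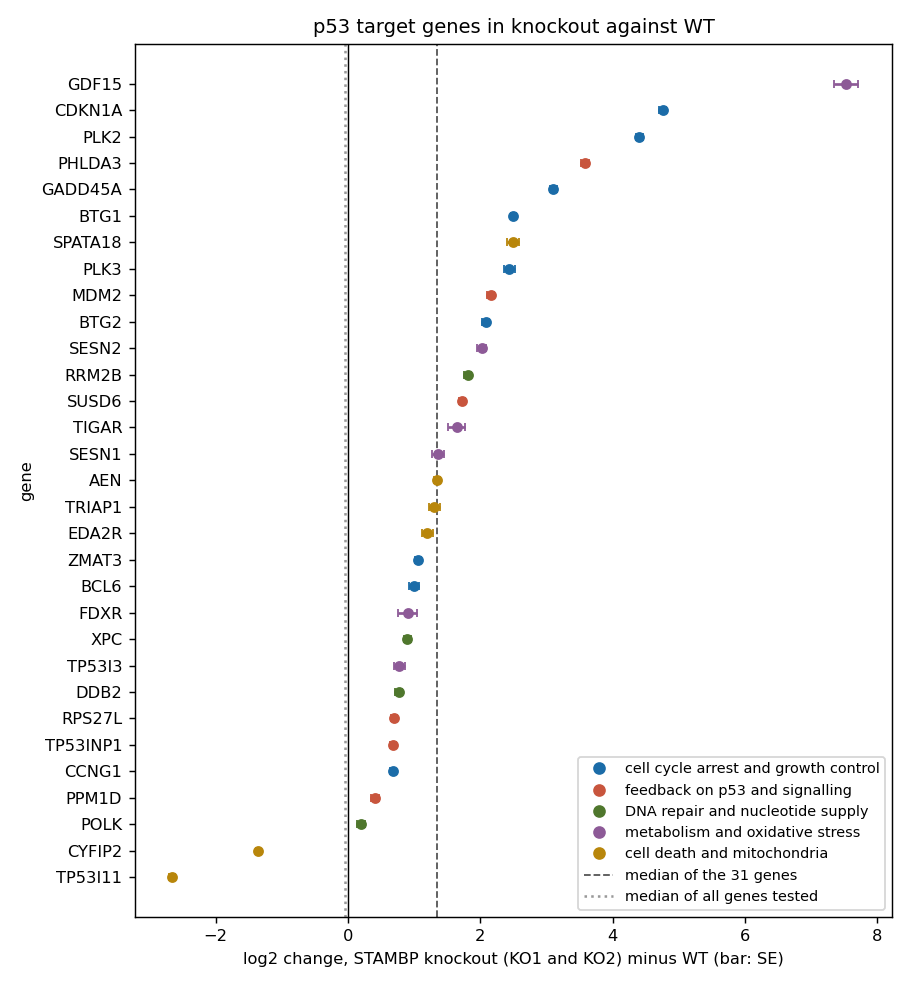
Points give the fitted log2 change of each gene, knockout minus WT, with its SE as a bar and its role as colour; dashed and dotted lines mark the medians of the 31 genes and of all genes tested. GDF15, CDKN1A and PLK2 lie above 4, most genes between 0 and 3, and CYFIP2 and TP53I11 below 0.

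Genes of cell cycle arrest and growth control were higher in 9 of 9 (median log2 change 2.44). CDKN1A (ENSG00000124762, chromosome 6, 36676460 to 36687339, GRCh38) encodes p21, the inhibitor of cyclin-dependent kinases through which p53 stops the cycle. It was at 58.3 and 62.3 CPM in WT, 1629.9 and 1616 CPM in KO1 and 1631 and 1664 CPM in KO2, and 40.0 and 39.5 CPM in KO+STAMBP and 29.8 and 34.9 CPM in the libraries labelled KO+CFLAR. The knockout libraries lay far above the 6 others without overlap, and the rescue libraries all lay below WT. The knockout rise was 4.76 ± 0.05 (SE, adjusted p = 6.91e-18), larger than that of 96.0% of all genes tested. PLK2 (ENSG00000145632, chromosome 5, 58453982 to 58460260, GRCh38), a polo-like kinase of the stress response and of centriole duplication, was at 33.0 and 36.3 CPM in WT, 728 and 727 CPM in KO1 and 732 and 751 CPM in KO2, and 71.2 and 64.6 CPM in KO+STAMBP and 67.4 and 73.7 CPM in the libraries labelled KO+CFLAR. Its rise in the knockout was 4.40 ± 0.06 (SE, adjusted p = 2.99e-17), and its rescue libraries stayed above WT.

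The related kinase PLK3 rose by 2.44 ± 0.08 on the log2 scale, and GADD45A, a growth arrest protein that binds PCNA and p21, by 3.10 ± 0.06. The antiproliferative relatives BTG1 and BTG2, which recruit the deadenylase that shortens mRNA tails, rose by 2.50 ± 0.04 and 2.08 ± 0.05. ZMAT3, an RNA-binding regulator of splicing, rose by 1.05 ± 0.05 and BCL6, a transcriptional repressor, by 1.00 ± 0.07. The smallest rise of the class was in CCNG1, a cyclin that works with a phosphatase to activate MDM2. CCNG1 was at 98.0 and 102 CPM in WT, 157 and 161 CPM in KO1 and 157 and 165 CPM in KO2, and 76.9 and 78.2 CPM in KO+STAMBP and 72.9 and 75.7 CPM in the libraries labelled KO+CFLAR. Its knockout change was 0.68 ± 0.04 (SE, adjusted p = 7.22e-10), with the knockout libraries above and the rescue libraries below both WT libraries.

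Genes that feed back on p53 or on growth signalling were higher in 6 of 6 (median 1.21). MDM2 (ENSG00000135679, chromosome 12, 68808176 to 68850686, GRCh38), the ligase that degrades p53, was at 136 and 131 CPM in WT, 611 and 571 CPM in KO1 and 569 and 625 CPM in KO2, and 117 and 122 CPM in KO+STAMBP and 116 and 117 CPM in the libraries labelled KO+CFLAR. Knockout and other libraries did not overlap, and the knockout change was 2.15 ± 0.05 (SE, adjusted p = 8e-15). Its exons overlap the carboxypeptidase M gene on the opposite strand, which had at most 449 counts in any library, a small share of the MDM2 counts. PHLDA3, which competes with AKT for membrane lipids, had the largest change of the class: 9.43 and 10.2 CPM in WT, 118 and 119 CPM in KO1 and 117 and 118 CPM in KO2, and 12.2 and 13.9 CPM in KO+STAMBP and 11.4 and 11.1 CPM in the libraries labelled KO+CFLAR. All 4 knockout libraries lay within a narrow band, and the change was 3.58 ± 0.06 (SE, adjusted p = 1.06e-15). SUSD6, a membrane protein of the p53 response, rose by 1.73 ± 0.05, RPS27L, a ribosomal protein paralog tied to MDM2, by 0.69 ± 0.05, and TP53INP1, a cofactor of p53 phosphorylation, by 0.68 ± 0.04.

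PPM1D, the WIP1 phosphatase that turns the damage response off, changed least among them. It was at 31.5 and 32.4 CPM in WT, 41.4 and 43.3 CPM in KO1 and 40.2 and 44.2 CPM in KO2, and 35.2 and 33.3 CPM in KO+STAMBP and 33.3 and 36.5 CPM in the libraries labelled KO+CFLAR. The change was 0.40 ± 0.06 (SE, adjusted p = 4.80e-05); the knockout libraries lay above all others, by a margin close to the spread within groups. The 2 inhibitors of p53 in this class thus rose by different amounts, MDM2 4.45-fold and PPM1D 1.32-fold by mean CPM.

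Genes of DNA repair and nucleotide supply were higher in 4 of 4, with the lowest median of the 5 classes (0.83). RRM2B (ENSG00000048392, chromosome 8, 102204502 to 102239118, GRCh38), the p53-induced small subunit of ribonucleotide reductase, was at 53.2 and 50.7 CPM in WT, 189 and 176 CPM in KO1 and 183 and 178 CPM in KO2, and 40.4 and 40.6 CPM in KO+STAMBP and 44.4 and 38.5 CPM in the libraries labelled KO+CFLAR. The knockout libraries stood apart from the other 6, with a change of 1.81 ± 0.05 (SE, adjusted p = 3.69e-13). The damage-recognition genes of nucleotide excision repair, XPC and DDB2, rose by 0.89 ± 0.05 and 0.76 ± 0.05. DDB2 is the gene with the mismatch-free pair of half-sites shown above, and XPC overlaps LSM3 on the opposite strand, which had 597 and 737 counts in WT and 468 to 572 in the knockout. POLK, a translesion DNA polymerase, was at 32.2 and 32.1 CPM in WT, 40.6 and 37.6 CPM in KO1 and 36.0 and 33.3 CPM in KO2, and 28.6 and 28.0 CPM in KO+STAMBP and 32.9 and 29.2 CPM in the libraries labelled KO+CFLAR. Its change of 0.19 ± 0.07 (SE, adjusted p = 0.0164) was the smallest of the 31. That call was lost with DESeq2 (log2 0.21, adjusted p = 0.0794), with library size as the scaling (log2 0.02), and without WT replicate 1, WT replicate 2, KO1 replicate 1 or KO2 replicate 1 (edgeR adjusted p from 0.0531 to 0.0865). In KO2 alone against WT it was not called (0.11 ± 0.08, adjusted p = 0.235).

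Genes of metabolism and oxidative stress were higher in 6 of 6 (median 1.5). GDF15 (ENSG00000130513, chromosome 19, 18374731 to 18389176, GRCh38), a secreted stress cytokine, was at 0.233 and 0.244 CPM in WT, which is 4 and 5 counts. It was at 43.3 and 44.2 CPM in KO1 and 49.3 and 44.9 CPM in KO2, and at 0.516 and 0.267 CPM in KO+STAMBP and 0.559 and 0.408 CPM in the libraries labelled KO+CFLAR. The 4 knockout libraries held 679 to 787 counts and the other 6 at most 12, and the change was 7.53 ± 0.18 (SE, adjusted p = 2.27e-14), the largest of the 31. SESN2, a sestrin that restrains mTORC1 and supports antioxidant defence, was at 20 and 19.2 CPM in WT, 79.2 and 82.8 CPM in KO1 and 79.2 and 76.7 CPM in KO2, and 21.8 and 19.4 CPM in KO+STAMBP and 19.1 and 21.1 CPM in the libraries labelled KO+CFLAR. Knockout libraries lay above all others, with a change of 2.02 ± 0.07 (SE, adjusted p = 7.16e-13), while the rescue libraries lay around WT. SESN1, its paralog, rose by 1.36 ± 0.09, TIGAR, a bisphosphatase that diverts sugar from glycolysis, by 1.64 ± 0.13, and FDXR, a mitochondrial ferredoxin reductase, by 0.90 ± 0.14.

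TP53I3 (ENSG00000115129, chromosome 2, 24077433 to 24085861, GRCh38), an oxidoreductase that generates reactive oxygen, had the smallest knockout change of that class and the largest departure of the rescues from WT. It was at 20.8 and 21.2 CPM in WT, 34.6 and 37.2 CPM in KO1 and 37.0 and 35.2 CPM in KO2, and 7.89 and 6.95 CPM in KO+STAMBP and 7.50 and 6.03 CPM in the libraries labelled KO+CFLAR. The 3 levels did not overlap: knockout above WT and both rescues below it. The knockout change was 0.77 ± 0.08 (SE, adjusted p = 6.92e-07). The exons of TP53I3 overlap those of FAM228B on the opposite strand, which had 166 and 218 counts in WT and 126 to 143 in the knockout. In KO+STAMBP FAM228B had 184 and 185 counts and TP53I3 153 and 130. In the libraries labelled KO+CFLAR FAM228B had 269 and 284 counts and TP53I3 161 and 133. With no strand setting given, reads of the pair cannot be told apart.

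In the class of cell death and mitochondria 4 of 6 genes were higher and 2 lower. SPATA18, which acts in mitochondrial quality control, was at 6.87 and 8.12 CPM in WT, 41.0 and 42.2 CPM in KO1 and 42.9 and 43.9 CPM in KO2, and 5.05 and 4.17 CPM in KO+STAMBP and 4.80 and 4.44 CPM in the libraries labelled KO+CFLAR. It rose in the knockout by 2.50 ± 0.09 (SE, adjusted p = 4.25e-12), and the rescue libraries lay below WT. EDA2R, a receptor of the TNF receptor family that binds ectodysplasin A2, was at 15 and 16.2 CPM in WT, 33.5 and 36.9 CPM in KO1 and 36.6 and 36.6 CPM in KO2, and 14.3 and 12.2 CPM in KO+STAMBP and 10.7 and 12.1 CPM in the libraries labelled KO+CFLAR. The knockout libraries lay above the rest, with a change of 1.2 ± 0.09 (SE, adjusted p = 7.36e-09). AEN, a nuclease of apoptotic DNA breakdown, rose by 1.34 ± 0.05, and TRIAP1, a mitochondrial lipid-transfer protein that opposes apoptosis, by 1.30 ± 0.08.

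TP53I11 (ENSG00000175274, chromosome 11, 44885903 to 44951306, GRCh38), a p53-inducible gene whose product restrains migration in epithelial cells, moved the opposite way. It was at 247 and 251 CPM in WT, 42.3 and 36.6 CPM in KO1 and 38.6 and 40.2 CPM in KO2, and 302 and 298 CPM in KO+STAMBP and 318 and 329 CPM in the libraries labelled KO+CFLAR. All 4 knockout libraries lay below the other 6, and the change was -2.66 ± 0.04 (SE, adjusted p = 4.42e-16), a 6.32-fold lower mean. Its exons overlap TSPAN18 on the opposite strand, which fell with it, from 1328 and 1676 counts in WT to 359 to 470 in the knockout, so the level of TP53I11 is uncertain to that extent. CYFIP2 (ENSG00000055163, chromosome 5, 157266079 to 157395595, GRCh38), a subunit of the WAVE actin-regulatory complex that is abundant in neurons, was at 196 and 190.5 CPM in WT, 74.4 and 77.5 CPM in KO1 and 76.1 and 73.3 CPM in KO2, and 256 and 259.8 CPM in KO+STAMBP and 268 and 275 CPM in the libraries labelled KO+CFLAR. Its change was -1.36 ± 0.03 (SE, adjusted p = 5.33e-14), again with all knockout libraries below the rest. It overlaps ADAM19 on the opposite strand, which had 458 and 530 counts in WT and 627 to 725 in the knockout. The summed neuron markers, given above, were also lower in the knockout and higher in the rescues than in WT, and their part in the levels of TP53I11 and CYFIP2 was not tested.

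**Figure D3:**
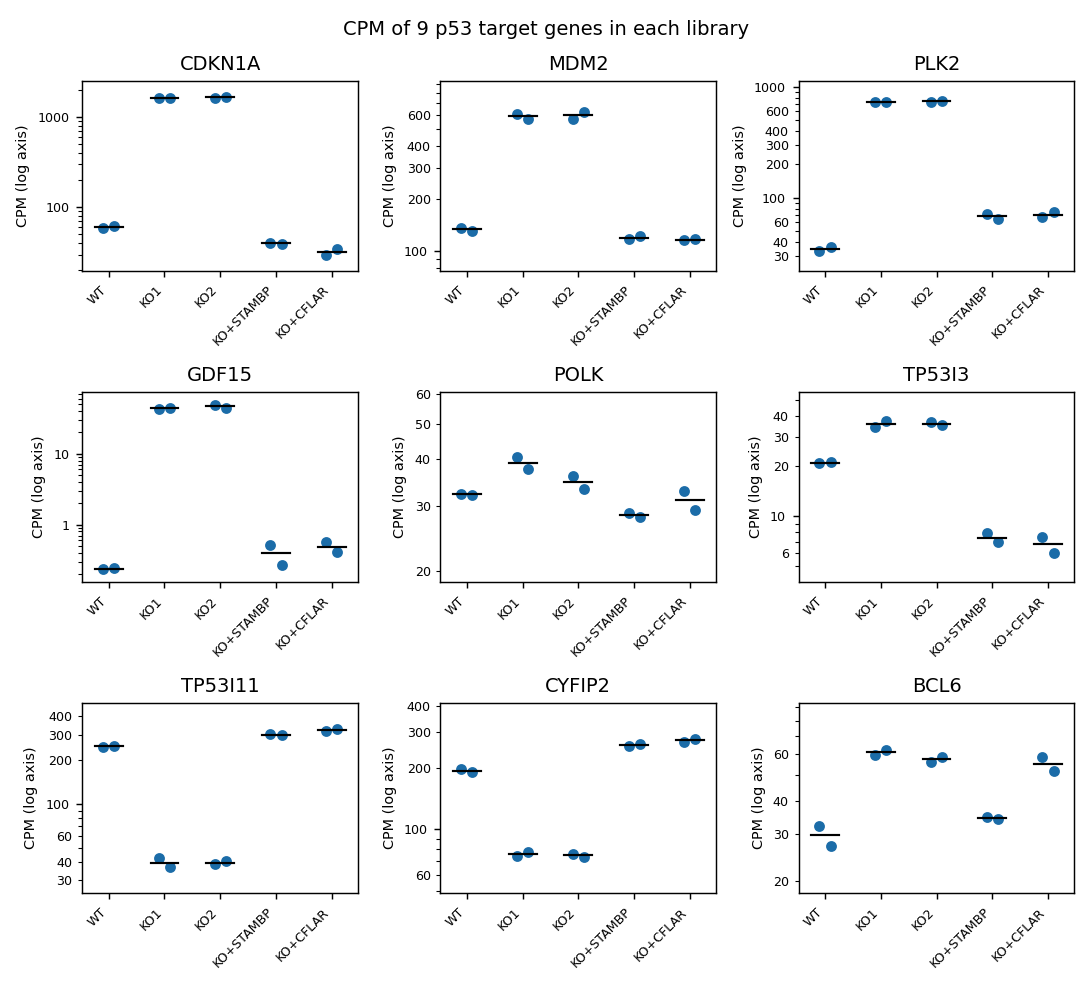
Panels give the CPM of 9 genes on log axes, with 1 point per library and a line at each group's mean. CDKN1A, MDM2, PLK2 and GDF15 are high in KO1 and KO2 alone, TP53I11 and CYFIP2 are low there, TP53I3 is lowest in both rescues, and for BCL6 1 of the libraries labelled KO+CFLAR lies within the knockout range.

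To compare genes with one another, mean CPM was divided by the length of each gene's merged exons in GENCODE release 29. On this scale the order of levels changed between WT and the knockout. In WT, TP53I11 (33.9 CPM per kilobase), CCNG1 (32.3), CDKN1A (19.8) and CYFIP2 (18.4) stood highest and GDF15 (0.114) lowest. In the knockout, CDKN1A (536 CPM per kilobase), PLK2 (154), GADD45A (85.1) and BTG1 (68.0) led, while CYFIP2 (7.17), FDXR (6.36), TP53I11 (5.37) and POLK (4.05) came last. Merged exons overstate the length of the transcript in use, so close neighbours in this order should not be ranked.

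The knockout lines were compared next. KO1 against WT gave 29 higher and 2 lower of the 31 (35.6% and 37.3% of all genes), and KO2 against WT gave 28 and 2 (35.8% and 37.3% of all genes); both comparisons use the same WT libraries. POLK made the difference between these counts, and its KO1 call was lost with library size as the scaling (edgeR adjusted p = 0.186) and without KO1 replicate 1 (0.0507). Set directly against each other, KO1 and KO2 differed in 0 of the 31 by edgeR and in 0 by DESeq2, with 1 (POLK) at an unadjusted p under 0.05, against 0.157% of all genes called. The log2 differences ran from -0.10 (GDF15) to 0.18 (POLK). The coefficient of variation over the 4 knockout libraries had a median of 3.29% and was largest for TIGAR (14.1%), which was at 37.1 and 48.0 CPM in KO1 and 38.2 and 48.0 CPM in KO2.

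Both rescue groups were compared with the knockout. KO+STAMBP had 29 of the 31 genes lower and 2 higher (median -1.73; 37.8% and 40.1% of all genes). The libraries labelled KO+CFLAR had 28 lower and 2 higher (median -1.71; 38% and 40% of all genes). The higher genes were TP53I11 (2.92 ± 0.04 and 3.03 ± 0.04 in log2 units) and CYFIP2 (1.78 ± 0.03 and 1.85 ± 0.03). GDF15 and CDKN1A changed most, with log2 changes of -6.82 ± 0.16 and -5.36 ± 0.05 in KO+STAMBP and of -6.54 ± 0.15 and -5.66 ± 0.06 in the libraries labelled KO+CFLAR. The gene not called in the latter was BCL6 (-0.10 ± 0.07, adjusted p = 0.178), and POLK, at -0.25 ± 0.07 (SE, adjusted p = 0.00349), lost its call without KO+CFLAR replicate 2 (adjusted p = 0.0842), with library size as the scaling (0.535) and with KO2 alone as the baseline (0.0789). These comparisons share the knockout libraries with each other and with the one against WT, so their mirrored values are not separate evidence.

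The rescues were then set against WT, to show where the p53 targets ended up; the knockout libraries enter these tests through the shared estimate of the spread. In KO+STAMBP 5 of the 31 were higher than WT, 11 lower and 15 not called, against 16.4% and 18.5% of all genes higher and lower. In the libraries labelled KO+CFLAR the numbers were 5, 12 and 14, against 15.8% and 17.9% of all genes. Medians were -0.13 and -0.10, against 0.01 and 0.01 over all genes, so the members had a larger share of lower genes than the table as a whole, with a small typical departure. The 2 comparisons share the WT libraries. Fitted with only the groups compared, KO+STAMBP had 6 higher and 12 lower.

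TP53I3 lay furthest below WT, with a log2 change of -1.5 ± 0.11 (SE, adjusted p = 1.13e-07) in KO+STAMBP and of -1.64 ± 0.11 (SE, adjusted p = 4.14e-08) in the libraries labelled KO+CFLAR, at 35.3% and 32.2% of the WT mean. CDKN1A was also lower, at -0.60 ± 0.06 (SE, adjusted p = 2.66e-06) and -0.90 ± 0.06 (SE, adjusted p = 4.82e-08). SPATA18 stood at -0.70 ± 0.14 and -0.70 ± 0.13, ZMAT3 at -0.67 ± 0.06 and -0.66 ± 0.06, and RPS27L at -0.45 ± 0.06 and -0.66 ± 0.06, all called lower. AEN, CCNG1, RRM2B, DDB2, BTG2 and MDM2 were also called lower in each, with changes between -0.55 (AEN in KO+STAMBP) and -0.16 (MDM2 in KO+STAMBP). EDA2R was lower in the libraries labelled KO+CFLAR, at -0.45 ± 0.11 (SE, adjusted p = 0.00424); in KO+STAMBP its change was -0.23 ± 0.11 (adjusted p = 0.109), and the difference between the rescues was not called (adjusted p = 0.451).

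On the other side, PLK2 was highest above WT, by 0.97 ± 0.06 (SE, adjusted p = 3.51e-08) and 1.02 ± 0.06 (SE, adjusted p = 1.65e-08). CYFIP2 was higher by 0.42 ± 0.04 and 0.49 ± 0.04, BTG1 by 0.38 ± 0.05 and 0.33 ± 0.05, and TP53I11 by 0.27 ± 0.05 and 0.38 ± 0.04, all called. PHLDA3 was higher in KO+STAMBP, at 0.40 ± 0.09 (SE, adjusted p = 0.00327), and 0.19 ± 0.09 (adjusted p = 0.137) in the libraries labelled KO+CFLAR. GDF15, at 5 to 12 counts per rescue library, was not called (0.70 ± 0.50 and 0.99 ± 0.46). With so few counts, a difference of that size is neither shown nor excluded. SESN1, SESN2, TIGAR, FDXR, XPC, POLK, PPM1D, TP53INP1, SUSD6, PLK3, GADD45A and TRIAP1 were not called in either; the widest of these was FDXR, at -0.32 ± 0.17 and -0.44 ± 0.17.

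The smaller of these calls depend on single libraries. MDM2 in KO+STAMBP (adjusted p = 0.0312) was not called without WT replicate 1, WT replicate 2, KO+STAMBP replicate 1 or KO+STAMBP replicate 2 (edgeR adjusted p = 0.154, 0.0556, 0.196 and 0.0506), and in the libraries labelled KO+CFLAR not without WT replicate 1 (0.0673). BTG2 in KO+STAMBP was lost without WT replicate 2 or either KO+STAMBP library (0.0751, 0.0671 and 0.0663). PHLDA3 was lost without KO+STAMBP replicate 2 (0.0557) and EDA2R, in the libraries labelled KO+CFLAR, without WT replicate 2 (0.0505).

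**Figure D4:**
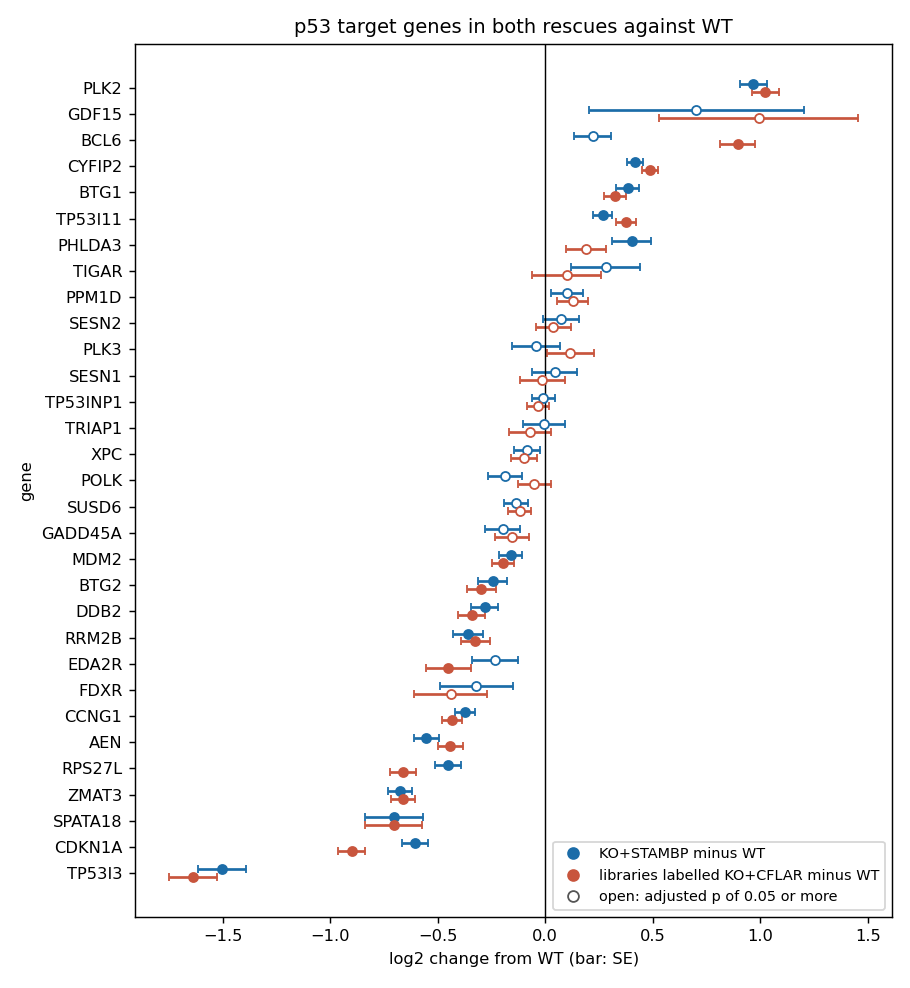
Points give the fitted log2 change from WT of the 31 genes in KO+STAMBP (blue) and in the libraries labelled KO+CFLAR (red), with SE bars; filled points passed an adjusted p of 0.05. Most genes lie within 0.7 of WT, TP53I3 lies furthest below and PLK2 furthest above among the filled points, and BCL6 differs between the rescues.

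The rescues differed from each other in 2 of the 31 genes, against 1.09% of all genes. BCL6 (ENSG00000113916, chromosome 3, 187721377 to 187745727, GRCh38), a repressor that in the developing cortex favours neurogenesis, was at 32.3 and 27.1 CPM in WT, 59.6 and 61.9 CPM in KO1 and 56.0 and 58.6 CPM in KO2, and 34.7 and 34.2 CPM in KO+STAMBP and 58.5 and 51.6 CPM in the libraries labelled KO+CFLAR. It was higher in the libraries labelled KO+CFLAR than in KO+STAMBP by 0.68 ± 0.08 (SE, adjusted p = 0.00183), without overlap; its exons overlap 2 unnamed transcripts on the opposite strand. Against WT it was at 0.90 ± 0.08 (SE, adjusted p = 9.38e-07) in the former and 0.22 ± 0.09 (adjusted p = 0.0656) in KO+STAMBP. CDKN1A was lower in the libraries labelled KO+CFLAR than in KO+STAMBP, at -0.30 ± 0.07 (SE, adjusted p = 0.0481). That call was lost when any library other than KO+CFLAR replicate 2 was left out: the edgeR adjusted p was 0.0509 and 0.053 without WT replicates 1 and 2, 0.0541 and 0.0514 without KO1 replicates 1 and 2, 0.0774 and 0.0774 without KO2 replicates 1 and 2, 0.274 and 0.275 without KO+STAMBP replicates 1 and 2, and 0.301 without KO+CFLAR replicate 1, where the log2 change was -0.19.

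Regulators of p53 were examined beside its targets. MDM4, the relative of MDM2 that blocks p53 activity, was at -0.11 ± 0.05 in the knockout (adjusted p = 0.0531). TP63, a p53-family factor of epithelia that can bind the same sites and is also on the epithelial marker list, was at 0.175 and 0.391 CPM in WT, 57.8 and 49.1 CPM in KO1 and 53.4 and 57.1 CPM in KO2, and 0.671 and 0.214 CPM in KO+STAMBP and 0.419 and 0.499 CPM in the libraries labelled KO+CFLAR. It rose with the p53 targets in the knockout, by 7.51 ± 0.21 (SE, adjusted p = 1.74e-13), and its part in their levels was not tested. Over a list of 22 regulators of p53, 9 were higher and 8 lower (median -0.03), near the shares of all genes (36.8% higher and 39.4% lower). Among those with the smallest adjusted p, the kinase gene HIPK2 fell by 1.73 ± 0.05 and the acetyltransferase gene EP300 rose by 0.96 ± 0.04. CDKN2A, also among them, rose by 6.97 ± 0.22, from 0.335 to 40.9 CPM. Its locus encodes the MDM2 inhibitor ARF among other products, and the gene-level count does not separate their transcripts.

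Downstream, 14 of 16 further p53 targets of the cell death arm were higher in the knockout and 0 lower (median 3.08). Of all genes tested, 36.8% were higher and 39.4% lower. PERP, a desmosome-associated death effector, rose by 4.81 ± 0.05, the TRAIL receptor TNFRSF10B by 2.77 ± 0.04 and PMAIP1, which encodes NOXA, by 4.75 ± 0.07. Against WT, 7 of the 16 were lower and 2 higher in KO+STAMBP (18.5% and 16.4% of all genes). In the libraries labelled KO+CFLAR 9 were lower and 2 higher (17.9% and 15.8% of all genes). Genes that p21 lowers through the DREAM repressor complex were lower in 20 of 20 in the knockout (median -2.75), against 39.4% of all genes. Among them were CENPF (-2.82 ± 0.04), FOXM1 (-3.31 ± 0.06) and MYBL2 (-3.46 ± 0.06), which act in mitosis and its transcription. CENPF was at 40.0 and 40.3 CPM in KO1 and 24.4 and 25.3 CPM in KO2, the 1 gene of this list called between the lines. Genes of this list were also lower than WT in 20 and 20 of 20 in the rescues (medians -0.74 and -0.67), against 18.5% and 17.9% of all genes. CDKN1A was above WT in the knockout and below WT in the rescues, and its part in the levels of these genes was not tested.

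Some of the 31 genes, GDF15 and SESN2 among them, are also known targets of ATF4, the factor of the integrated stress response. Of 13 genes of the ATF4 route outside the 31, ATF4 itself included, 11 were higher in the knockout and 1 lower (median 1.64). Of all genes tested, 36.8% were higher and 39.4% lower. From the list, ATF3 was at 5.90 ± 0.08, SLC7A11 at 3.96 ± 0.06 and STC2 at 7.2 ± 0.13. Others, picked out after their values were seen, rose less or did not rise. ATF4 at 0.65 ± 0.03 and ASNS at 0.39 ± 0.10 were still called higher. PHGDH was at 0.05 ± 0.04 (edgeR adjusted p = 0.272) and PSAT1 at -1.41 ± 0.04. The remaining genes of the list, DDIT3, TRIB3, CHAC1, DDIT4, VLDLR and PPP1R15A, were called higher. The share of either route in GDF15 and SESN2 was not tested.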

How the data were processed

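Total RNA (1 µg per library, Trizol, Illumina TruSeq, per the labels) was sequenced in 10 libraries. The table the authors deposited holds raw counts per gene as whole numbers. Tools named in the submitters' processing notes are RSEM 1.2.4, fastp 0.20.0 and DESeq2, and builds are GRCh38 and hg38; rounding of RSEM estimates, annotation release and strand setting are not given in the sources used here. Rows without an Ensembl identifier (667, 0.330% of counts) stayed in the tests. Of the 31 genes, 14 were on rows with a locus name beginning MSTRG; 12 have exons that overlap a gene on the opposite strand and 3 (BTG1, CCNG1 and TRIAP1) have a pseudogene named after them.

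Counts were fitted with edgeR 4.0.16 (R 4.3.3; TMM factors, filterByExpr, quasi-likelihood test) over 5 group means, with 5 residual degrees of freedom and Benjamini-Hochberg adjustment over 21063 genes. KO is the mean of KO1 and KO2. SE is the log2 change divided by the root of F. The members, the lists and the rule for genes given in every library (CDKN1A, MDM2, the most abundant, most and least changed of each role, and the extremes of the rescue comparisons) were chosen with earlier results of these data known; the promoter search was designed after the data were seen. The fit was tested on simulated counts. On average over genes, replicate libraries differed beyond sampling noise (mean chi-square of 1.95 to 3.59 across the 5 groups). Alternatives were DESeq2 1.42.0, other scalings and filters, a replicate block and left-out libraries.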

Additional observations from a re-analysis of the deposited data

Results flagged for a closer look

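EDA2R in KO1 replicate 1 was at 33.5 CPM, apart from the other 3 knockout libraries at 36.6 to 36.9 CPM; its gap was 0.91 of the range of the 4, above Dixon's 95% critical value. Chance gives about 1 such flag in 20 genes, and 1 of the 31 genes had one. The level in that library was still above every WT and rescue library. BCL6 differed between the rescues, with a log2 change of 0.68 for KO+CFLAR against KO+STAMBP, and so did CDKN1A, with -0.30, both by the test of the difference itself.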

How the results depend on the processing

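Called changes of the 31 genes were refitted under each alternative, 3457 values in all. Of these, 3421 kept direction and call, 36 kept direction and lost the call, and 0 reversed. For KO vs WT the 6 lost calls were POLK. Scaling by library size shifted all genes by -0.18 (log2, median) in KO vs WT and by 0.21 and 0.20 in KO+STAMBP and KO+CFLAR vs KO; 28 of the 31 were then higher and 2 lower in KO vs WT, PPM1D lost its call in both rescues against the knockout, and POLK in KO1 vs WT and KO+CFLAR vs KO, where 26 were lower. DESeq2 called 14505 genes in KO vs WT, with 28 of the 31 higher, and lost BTG2 and DDB2 in KO+STAMBP vs WT, where library size lost MDM2. Over all genes, KO1 vs KO2 called 33, or 251 without the low-count filter and 20 (without KO2 replicate 2) to 58 (without KO1 replicate 2) with 1 library left out. KO+CFLAR vs KO+STAMBP called 229, or 780 without the filter and 27 to 313 with 1 library left out: 27 and 29 without KO+STAMBP replicates 1 and 2, and 52 without KO+CFLAR replicate 1. In that comparison 0 to 1 of the 31 genes were lower with 1 library left out, and 0 with only the groups compared. The replicate numbers are not said to pair libraries: R1 minus R2 differences correlated between groups at -0.02 to 0.07. With the replicate block, KO vs WT called 16036 genes, with 29 and 2 of the 31, KO+STAMBP vs WT had 12 lower, and the counts of the 31 in the other comparisons were the same. Counts of 4 to 12 limit GDF15 outside the knockout.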

Other observations

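Relatives and partners of the 31 genes gave a mixed picture in the knockout: of 27 on a list, 13 were higher, 11 lower and 3 not called (median log2 change 0.06). Of all genes tested, 36.8% were higher and 39.4% lower. CCND1, the cyclin of G1 entry, rose by 3.83 ± 0.04, from 59.5 to 849 CPM. Other subunits of ribonucleotide reductase went the opposite way to RRM2B: the small subunit RRM2 fell by 3.30 ± 0.05 and the large subunit RRM1 by 1.69 ± 0.06. In mean CPM, RRM2 went from 135 in WT to 13.7 in the knockout, and RRM2B from 51.9 to 182.

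The polo-like kinases split in the same manner. PLK2 and PLK3 rose, while the mitotic kinase PLK1 fell by 2.73 ± 0.08 and the centriole kinase PLK4 by 2.15 ± 0.07. GADD45B rose by 6.29 ± 0.14 with GADD45A, and GADD45G fell by 2.34 ± 0.14. SESN3, a sestrin driven by FOXO factors, fell by 0.21 ± 0.04 as SESN1 and SESN2 rose. PHLDA1 and PHLDA2 rose by 1.69 ± 0.03 and 8.30 ± 0.26, as PHLDA3 did. The BTG relatives BTG3, TOB1 and TOB2 rose by 0.94 ± 0.05, 1.57 ± 0.06 and 0.67 ± 0.04. All these changes had an adjusted p under 0.05 by edgeR; genes here other than CCND1, RRM2 and PHLDA1 were picked out after their values were seen.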
